A study of Homo sapiens with 6 samples.

Results

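The BCL2 family apoptosis regulators were examined as 10 genes taken by symbol from the deposited table of 27381 genes, and all 10 were found. They are the pro-survival genes BCL2, BCL2L1 (BCL-XL) and MCL1, the effectors BAX and BAK1, and the BH3-only genes BID, BAD, BBC3 (PUMA), PMAIP1 (NOXA) and BCL2L11 (BIM). RNA was sequenced from 6 libraries of DU145, an established human cell line from metastatic castration-resistant prostate cancer, 2 for each of 3 conditions. Scr cells received Cas9 with a scrambled sgRNA that has no target, CD24 KO cells had CD24 knocked out and RCC2 KO cells had RCC2 knocked out. All 3 came from cells transfected with a plasmid carrying Cas9 and GFP, sorted for GFP and expanded as clones, with no treatment or time given in the labels. Which clone gave which library was not given, so an effect of the knockout and of the clone cannot be told apart.

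Proteins of the BCL2 family decide whether the outer membrane of the mitochondrion stays intact. BAX and BAK1 open it and let out cytochrome c, which starts the caspases. The pro-survival proteins hold BAX, BAK1 and the BH3-only proteins in check, and BH3-only proteins occupy the pro-survival proteins or activate BAX and BAK1 directly. NOXA binds mainly MCL1, BAD binds BCL2 and BCL-XL, and BIM, PUMA and cleaved BID bind all of the main pro-survival proteins. Much of this control acts on the proteins, which were not measured in these libraries, and DU145 is known to carry a frameshift in BAX that removes the BAX protein.

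The table gave 1 value per gene and condition in FPKM, a count of fragments scaled by transcript length and by sequencing depth. The libraries of a condition were thus already combined, and the RCC2 KO column may hold 1 library or both, since its name is also the label of the first library. No SD between libraries, test or p-value could be computed, the depth behind the values is unknown, and no difference has a replicate check. Differences are given between values of log2(FPKM + 1), and a gene was called different at 2-fold or more on this scale, with 1.5-fold as a second minimum. A total of 12822 genes, those with at least 1 FPKM in at least 1 column, were compared. The epithelial markers EPCAM, CDH1, KRT8 and KRT18 were all at 23.7 FPKM or more in every column, and KLK3 and the leukocyte gene PTPRC were listed at 0 in all 3. The targeted RNAs were not lower in the columns labelled as their own knockouts. CD24 measured 93.2 FPKM in Scr, 309 in the column labelled CD24 KO and 214 in the column labelled RCC2 KO, and RCC2 measured 37.8, 14.2 and 41.8 FPKM in that order. The paper reports checking its DU145 knockout clones by Western blotting, flow cytometry and Sanger sequencing. The RNA levels alone do not verify the labels, so every direction below rests on the labels as given.

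MCL1 and BCL2L1 were the most abundant members in every condition, and BCL2 and BBC3 were almost absent from the RNA. MCL1, a short-lived protein that holds BAK1 and BIM, was at 147 FPKM in Scr, compared with 181 in CD24 KO and 147 in RCC2 KO. BCL2L1, which encodes BCL-XL, was at 85.5 FPKM in Scr, against 121 in CD24 KO and 97.3 in RCC2 KO. Only 3.44% of the genes compared had a higher value than MCL1 in Scr, and 7.30% a higher value than BCL2L1. BCL2, the founding pro-survival gene, was at 0.317 FPKM in Scr, compared with 0.0548 in CD24 KO and 0.0872 in RCC2 KO. BCL2 thus made up 0.136% of the summed FPKM of the 3 pro-survival members in Scr, against 63.1% for MCL1 and 36.7% for BCL2L1. BBC3, the gene of PUMA and a p53 target, was at 0.883, 0.821 and 0.586 FPKM in Scr, CD24 KO and RCC2 KO. Neither BCL2 nor BBC3 reached 1 FPKM in any column, and both were left out of the counts of compared genes. The other 8 members were at 1 FPKM or more in all 3 columns.

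Between these extremes lay the pro-death members, from BAK1 and BCL2L11 at the lower end to BAD and BAX. In Scr the order of levels was MCL1, BCL2L1, BAD, BAX, PMAIP1, BID, BAK1, BCL2L11, BBC3 and BCL2. PMAIP1 stood only 1.06-fold above BID and BAX 1.25-fold above PMAIP1, and without a spread between libraries these neighbours cannot be ordered with confidence. In CD24 KO PMAIP1 moved from the fifth to the third place, ahead of BAD, and BCL2L11 moved past BAK1. In RCC2 KO BAX took the third place, 1.04-fold above BAD. MCL1 and BCL2L1 kept the first and the second place and BBC3 and BCL2 the last places in every column.

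**Figure D1:**
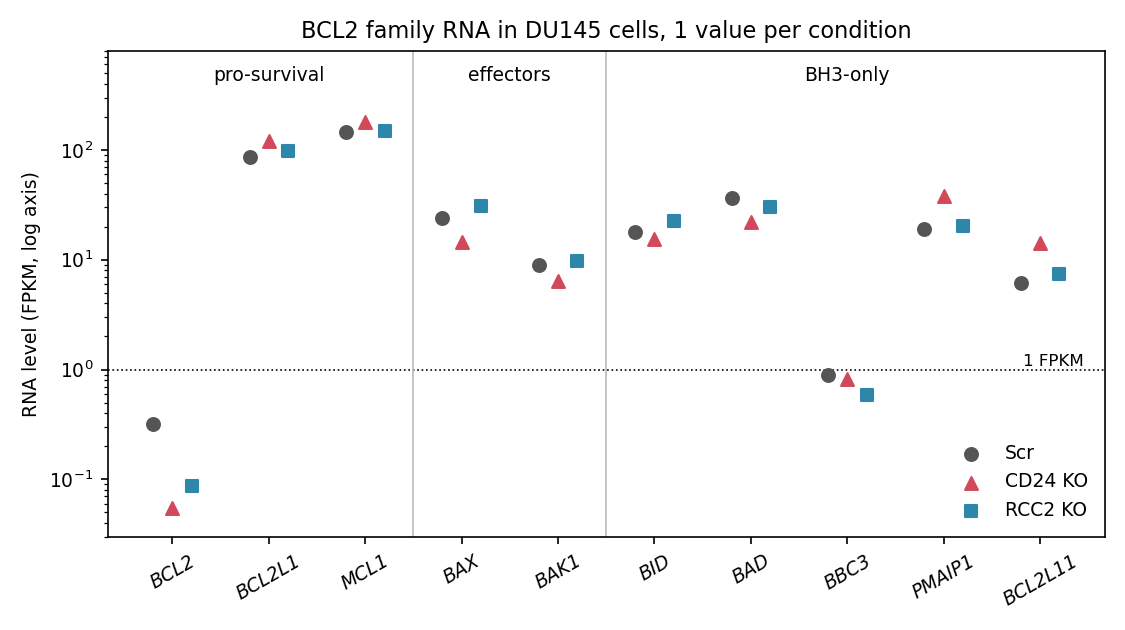
RNA level in FPKM on a log axis for the 10 members, grouped by role, with 1 point per condition for Scr, CD24 KO and RCC2 KO and no error bars because the table holds 1 value each. BCL2L1 and MCL1 lie at 85.5 FPKM or more in every condition, while BCL2 and BBC3 lie below the dotted line at 1 FPKM.

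In the libraries labelled CD24 KO the BH3-only genes BCL2L11 and PMAIP1 were about 2-fold higher than in Scr, and BAX and BAD were more than 1.5-fold lower. Of the 8 members compared, BCL2L11 alone was at least 2-fold higher, as were 2.67% of all genes compared. None was at least 2-fold lower, as were 388 of the 12822 genes compared. At the 1.5-fold minimum 2 members were higher, against 9.55% of all genes, and 2 were lower, against 11.6% of all genes. The 8 members had a median log2 difference of 0.06, and all genes compared one of -0.03.

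Among the BH3-only genes of CD24 KO, those with the largest differences were higher. BCL2L11 encodes BIM, which binds every main pro-survival protein and activates BAX and BAK1. It was at 6.17 FPKM in Scr, against 14.2 in CD24 KO and 7.45 in RCC2 KO, with log2 differences from Scr of 1.09 and 0.24. PMAIP1, whose product NOXA neutralizes MCL1, was at 19.0 FPKM in Scr, compared with 38.3 in CD24 KO and 20.4 in RCC2 KO. Its log2 difference from Scr was 0.97 in CD24 KO, just short of the 2-fold minimum, and 0.10 in RCC2 KO. The plain ratio of the FPKM values was 2.01 for PMAIP1 and 2.30 for BCL2L11. For both genes the CD24 KO value was thus the highest of the 3, and Scr and RCC2 KO lay close together.

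BAD and BID showed no such increase. BAD, a BH3-only protein that growth factor signaling switches off by phosphorylation, was at 36.2 FPKM in Scr, against 22.0 in CD24 KO and 29.9 in RCC2 KO. The log2 difference from Scr was -0.70 in CD24 KO and -0.27 in RCC2 KO, which made BAD the only compared member below Scr in both knockouts. BID, which caspase-8 cleaves to link death receptors to the mitochondrion, was at 17.9, 15.6 and 22.4 FPKM, with log2 differences of -0.19 and 0.31. Both comparisons share the same Scr values.

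The effectors were lower in CD24 KO and higher in RCC2 KO, although only BAX in CD24 KO passed 1.5-fold against Scr. BAX was at 23.8 FPKM in Scr, compared with 14.4 in CD24 KO and 31.0 in RCC2 KO, a log2 difference of -0.69 and 0.36. BAK1 was at 8.89, 6.43 and 9.68 FPKM, with log2 differences of -0.41 and 0.11. BAX therefore had 2.68 times the FPKM of BAK1 in Scr, 2.24 times in CD24 KO and 3.20 times in RCC2 KO. BCL2L1 and MCL1 stayed under the 1.5-fold minimum, with log2 differences from Scr of 0.50 and 0.30 for CD24 KO, and of 0.18 and 0.00 for RCC2 KO.

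When each column was scaled to an equal sum over the genes above 0 in all 3 columns, the median of all genes in CD24 KO against Scr moved up by 0.14 to 0.11. BAX and BAD then had log2 differences of -0.53 and -0.54 in CD24 KO and no longer passed 1.5-fold, while PMAIP1 and BCL2L11 both passed 2-fold. BCL2L1, at 0.66, then passed 1.5-fold above Scr, and MCL1, at 0.47, did not.

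**Figure D2:**
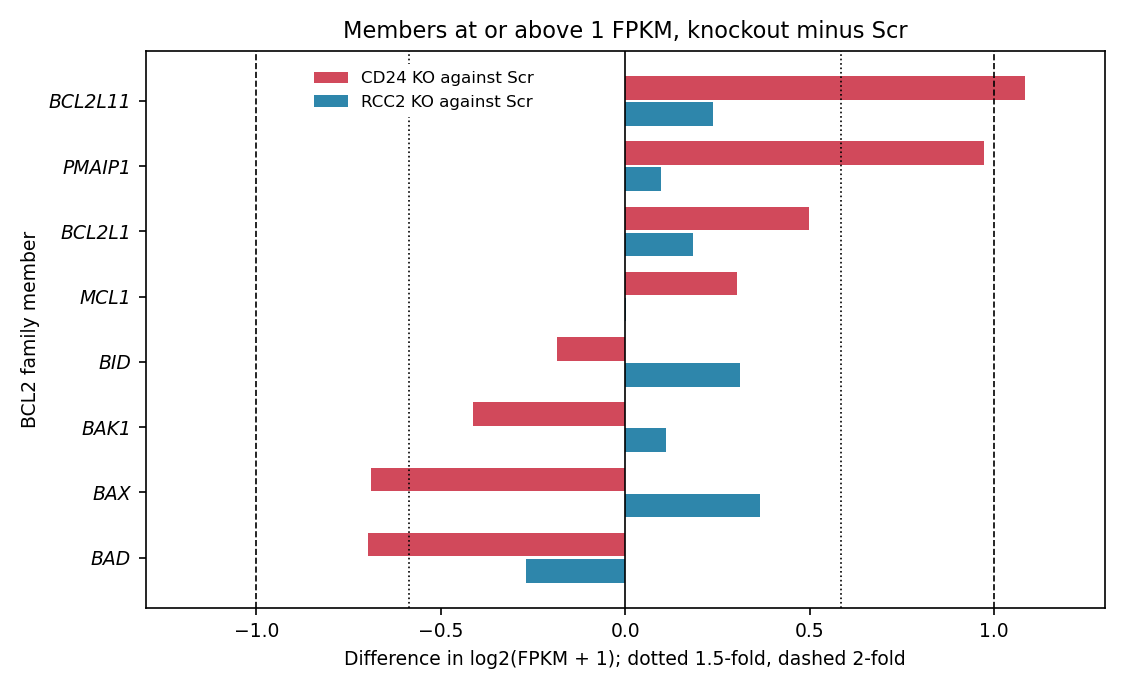
Difference in log2(FPKM + 1) from Scr for the 8 members at or above 1 FPKM, with CD24 KO and RCC2 KO as separate bars, 1 value each, and lines at 1.5-fold and 2-fold. BCL2L11 and PMAIP1 reach 1.09 and 0.97 in CD24 KO, BAX and BAD reach -0.69 and -0.70, and all RCC2 KO bars stay inside the 1.5-fold lines.

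The sequence just upstream of these 4 genes is shown because their RNA lay past 1.5-fold in CD24 KO. RefSeq promoters (GRCh38.p14) were matched by symbol for 9 members, all but MCL1, and the 250 bases before the start are printed from 5′ to 3′ on the strand of the gene. Capitals mark any match, on either strand, to 4 motifs chosen with these values known, which are TGACGT (the first letters of the cyclic AMP response element bound by CREB and ATF factors), TGATGNAA (the core of the C/EBP-ATF response element), GTAAACA (the core bound by FOXO factors) and CACGTG (the E-box). No marked match overlaps another.
PMAIP1, chr18:59899746-59899995, plus strand: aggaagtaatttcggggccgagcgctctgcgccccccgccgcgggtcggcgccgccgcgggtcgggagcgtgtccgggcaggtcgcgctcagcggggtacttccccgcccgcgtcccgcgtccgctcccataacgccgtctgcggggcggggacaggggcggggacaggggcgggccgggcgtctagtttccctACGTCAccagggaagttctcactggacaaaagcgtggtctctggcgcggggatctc
BCL2L11, chr2:111120664-111120913, plus strand: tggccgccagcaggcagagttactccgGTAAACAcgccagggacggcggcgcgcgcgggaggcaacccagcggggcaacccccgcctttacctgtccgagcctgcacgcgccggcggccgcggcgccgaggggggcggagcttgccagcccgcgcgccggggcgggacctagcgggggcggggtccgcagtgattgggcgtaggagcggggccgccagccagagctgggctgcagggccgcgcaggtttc
BAX, chr19:48954625-48954874, plus strand: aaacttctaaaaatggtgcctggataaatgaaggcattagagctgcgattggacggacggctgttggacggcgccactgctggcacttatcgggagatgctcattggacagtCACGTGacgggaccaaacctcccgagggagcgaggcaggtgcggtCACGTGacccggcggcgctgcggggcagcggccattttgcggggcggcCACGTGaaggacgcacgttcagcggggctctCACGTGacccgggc
BAD, chr11:64284705-64284954, minus strand: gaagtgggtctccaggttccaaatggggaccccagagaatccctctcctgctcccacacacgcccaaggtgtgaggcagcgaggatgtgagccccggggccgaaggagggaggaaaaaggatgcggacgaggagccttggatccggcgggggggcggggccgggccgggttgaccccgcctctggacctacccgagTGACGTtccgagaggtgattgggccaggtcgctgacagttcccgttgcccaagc
PMAIP1 held TGACGT on its reverse strand, beginning 56 bases before the start, and BAD held it on its forward strand, beginning 54 bases before the start, although PMAIP1 was higher and BAD lower in CD24 KO. In the other BAD promoter, which is not printed, the match began 93 bases before the start. TGACGT occurred in 7.10% of the 35116 promoters of this length. BCL2L11 held GTAAACA, found in 2.98% of promoters, beginning 223 bases before the start. BAX held CACGTG 4 times, beginning between 138 and 14 bases before the start, and 6.34% of promoters held it at least once. CACGTG was in 3 of the members searched, BAX, BID and BBC3. TGATGNAA, in 3.14% of promoters, was in none of the member promoters searched. These matches are descriptions of sequence and not of binding, which was not measured.

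Factors known to drive BH3-only genes were examined from a list of 8 genes, 7 of which were compared. In CD24 KO 6 of the 7 were above Scr and 1 below, with a median log2 difference of 0.37, against -0.03 for all genes compared. The 1 below was E2F1, at 14.9 FPKM in Scr, 9.60 in CD24 KO and 15.3 in RCC2 KO. Its log2 difference from Scr was -0.58 in CD24 KO, just short of 1.5-fold. Only 2 of them, or 28.6%, passed 1.5-fold, where 21.1% of all genes did in either direction. DDIT3, which encodes the stress factor CHOP, was at 24.8 FPKM in Scr, against 61.5 in CD24 KO and 27.7 in RCC2 KO, with log2 differences from Scr of 1.28 and 0.15. ATF3, a further stress-induced factor, was at 10.3, 20.2 and 9.89 FPKM, with log2 differences from Scr of 0.91 and -0.05. DDIT3 and ATF3 thus had their highest value in the same column as PMAIP1 and BCL2L11, and their part in those levels was not tested. In RCC2 KO none of the 7 passed 1.5-fold, and the median was 0.01.

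In RCC2 KO no compared member passed 1.5-fold against Scr, where 5.27% of all genes did, and none passed 2-fold, where 1.20% of all genes did. The differences ran from -0.27 for BAD to 0.36 for BAX, with 7 of 8 members above Scr and a median of 0.15, against a median of 0.00 for all genes compared. The 7 include MCL1, at 0.003. Of the 48 genes compared in the other apoptosis lists described here, 33 were also above Scr in RCC2 KO. BAX, BID and BCL2L11 had the highest differences. PMAIP1 and BCL2 lie on chromosome 18, whose other 190 genes compared had a median log2 difference of -0.22 in RCC2 KO, and PMAIP1 lay 0.32 above that median.

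Set directly against each other, the knockout columns differed most in BAX, PMAIP1 and BCL2L11. Relative to CD24 KO, BAX had a log2 difference of 1.05 in RCC2 KO, the only one of the 8 members at least 2-fold higher, as were 4.02% of all genes, and also the only one at least 1.5-fold higher, as were 13.8% of all genes. PMAIP1 and BCL2L11 were lower in RCC2 KO, at -0.88 and -0.85, past 1.5-fold, as were 14.1% of all genes. BAK1, BID and BAD were higher in RCC2 KO by 0.52, 0.50 and 0.43, and BCL2L1 and MCL1 lower, at -0.31 and -0.30. With equal sums over shared genes, BAX was at 0.92 and no longer past 2-fold, and PMAIP1, at -1.02, was the member past it.

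Because FPKM is scaled to length, the RNA of the 3 pro-survival members could be summed and set against that of the 7 pro-death members within a column, a ratio that does not depend on the scaling factor of the column. The pro-survival sum was 233 FPKM in Scr, compared with 303 in CD24 KO and 245 in RCC2 KO. The pro-death sum was 113, 112 and 121 FPKM. Pro-survival RNA was thus 2.06 times pro-death RNA in Scr, 2.71 times in CD24 KO and 2.01 times in RCC2 KO. The ratio in CD24 KO was therefore 1.32 times that in Scr. The pro-death sum in CD24 KO was 0.989 times that in Scr while its make-up differed. PMAIP1 and BCL2L11 together took 22.3% of the pro-death sum in Scr, 47.0% in CD24 KO and 22.9% in RCC2 KO, and BAX, BAK1 and BAD together took 61.1%, 38.3% and 58.1%. BH3-only RNA was 2.45 times effector RNA in Scr, 4.37 times in CD24 KO and 1.99 times in RCC2 KO. Without BAX, whose protein is known to be missing in this line, pro-survival RNA was 2.61, 3.11 and 2.70 times pro-death RNA in Scr, CD24 KO and RCC2 KO, and the ratio in RCC2 KO then lay above rather than below that in Scr.

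The RNA of members whose proteins bind each other did not shift alike. The BAX protein is known to be missing in this line, so ratios to BAX describe RNA only. BCL2L1 RNA was 3.59 times BAX RNA in Scr, 8.42 times in CD24 KO and 3.14 times in RCC2 KO. The ratio of BCL2L1 to BAD was 2.36, 5.52 and 3.25 in the same order. MCL1 RNA was 7.72 times PMAIP1 RNA in Scr, 4.74 times in CD24 KO and 7.21 times in RCC2 KO, and 23.8, 12.8 and 19.8 times BCL2L11 RNA. Relative to BAK1, MCL1 RNA was 16.5, 28.2 and 15.2 times as high. In CD24 KO BCL-XL RNA was therefore higher relative to BAX and BAD, and MCL1 RNA was lower relative to NOXA and BIM but higher relative to BAK1.

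**Figure D3:**
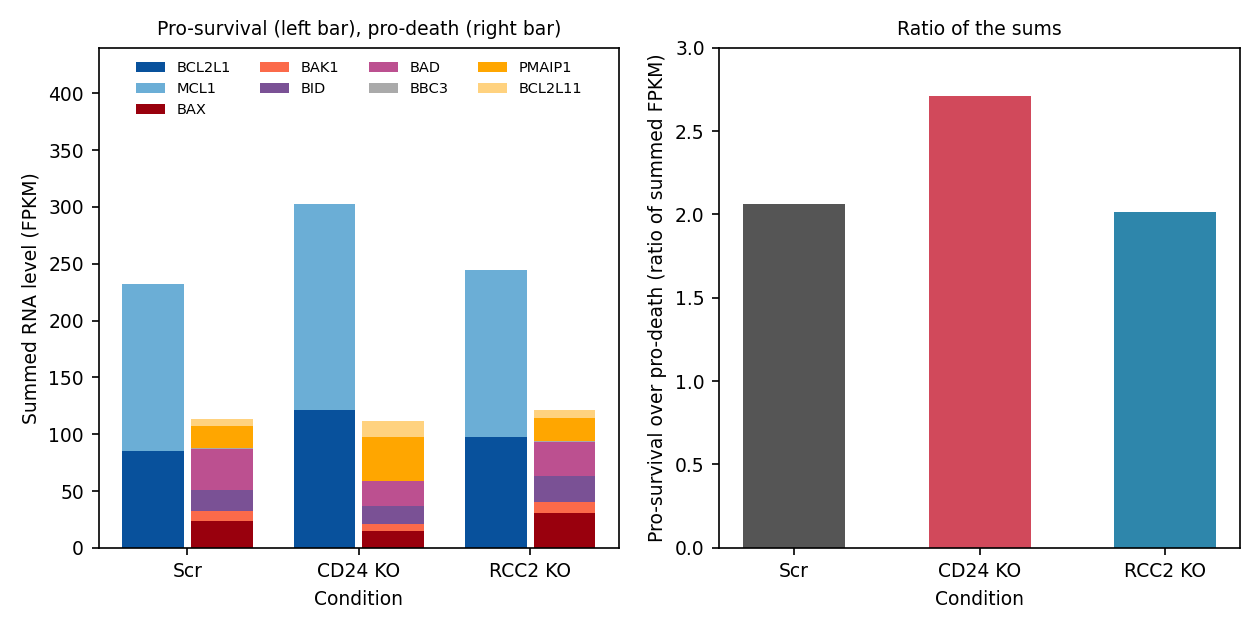
Left, summed FPKM of the pro-survival members (left bar of each pair) and pro-death members (right bar), stacked by gene, in Scr, CD24 KO and RCC2 KO, with BCL2 left out because its share is below 1 FPKM. Right, the ratio of the sums, which is 2.06, 2.71 and 2.01, while the pro-death sums stay between 112 and 121 FPKM, with 1 value per condition and no error bars.

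Other BCL2 family genes were counted from a list of 13, of which 9 were compared. In CD24 KO 3 were at least 1.5-fold higher and 2 at least 1.5-fold lower than Scr, and in RCC2 KO 1 was higher and 1 lower. These were 55.6% of the 9 genes in CD24 KO, against 21.1% of all genes past 1.5-fold in either direction, and 22.2% in RCC2 KO, against 5.27% of all genes. BCL2A1, a pro-survival gene, was at 4.82 FPKM in Scr, against 10.02 in CD24 KO and 5.69 in RCC2 KO, a log2 difference of 0.92 in CD24 KO. BNIP3, a BCL2-related gene of mitochondrial turnover that hypoxia induces, was at 43.4, 17.7 and 45.2 FPKM, with a log2 difference of -1.25 in CD24 KO. BNIP3L, a further BCL2-related gene, went the other way, at 82.4, 142 and 77.0 FPKM, with a log2 difference of 0.77 in CD24 KO. BCL2L12 was at 18.7, 9.76 and 16.3 FPKM, with a log2 difference of -0.87 in CD24 KO. BCL2L2 was at 2.19, 2.25 and 3.95 FPKM, with a log2 difference of 0.63 in RCC2 KO. BIK, a BH3-only gene, was at 0.732, 2.52 and 1.21 FPKM and passed the filter only through its knockout columns, with a log2 difference of 1.02 in CD24 KO. BMF, a further BH3-only gene, was at 2.69 FPKM in Scr, compared with 3.57 in CD24 KO and 0.832 in RCC2 KO, and its log2 difference of -1.01 in RCC2 KO was the only one among the family genes past 2-fold there. With these genes added to their classes, pro-survival RNA was 1.97, 2.56 and 1.96 times pro-death RNA in Scr, CD24 KO and RCC2 KO.

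Downstream of the family, the RNA for cytochrome c and for 2 of 5 compared inhibitor of apoptosis proteins (IAPs) was more than 1.5-fold lower in CD24 KO than in Scr, as was that of 11.6% of all genes. All 7 genes for mitochondrial factors and the apoptosome were compared, and 6 lay below Scr in CD24 KO. Their median log2 difference was -0.41, against -0.03 for all genes compared, and only CYCS passed 1.5-fold. CYCS, cytochrome c itself, was at 37.5 FPKM in Scr, against 22.7 in CD24 KO and 45.5 in RCC2 KO, a log2 difference of -0.70 in CD24 KO. Of 7 IAP genes 5 were compared, with a median of -0.38 in CD24 KO, and only BIRC3 and BIRC5 passed 1.5-fold, while XIAP was at -0.02. BIRC3 was at 66.7, 33.3 and 44.0 FPKM, past 1.5-fold below Scr in both knockouts (log2 differences of -0.98 and -0.59). BIRC5, which encodes survivin and is also a gene of mitosis, was at 59.9 FPKM in Scr, compared with 29.9 in CD24 KO and 72.7 in RCC2 KO, a log2 difference of -0.98 in CD24 KO.

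The share past 1.5-fold in CD24 KO was 14.3% for the caspases, as for the mitochondrial factors and apoptosome, against 21.1% of all genes. Of 7 caspase genes, all compared, CASP9, the initiator on the apoptosome, was the only one past 1.5-fold, at 7.43 FPKM in Scr, against 12.0 in CD24 KO and 5.42 in RCC2 KO, with log2 differences from Scr of 0.62 and -0.39. None of the 8 death receptor pathway genes and none of the 5 genes for MCL1 turnover passed 1.5-fold against Scr in either knockout. Over all 48 genes compared in these lists, 6 were at least 1.5-fold higher and 5 at least 1.5-fold lower in CD24 KO, a share of 22.9% against 21.1% of all genes. In RCC2 KO 1 was higher and 2 were lower, a share of 6.25% against 5.27% of all genes.

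**Figure D4:**
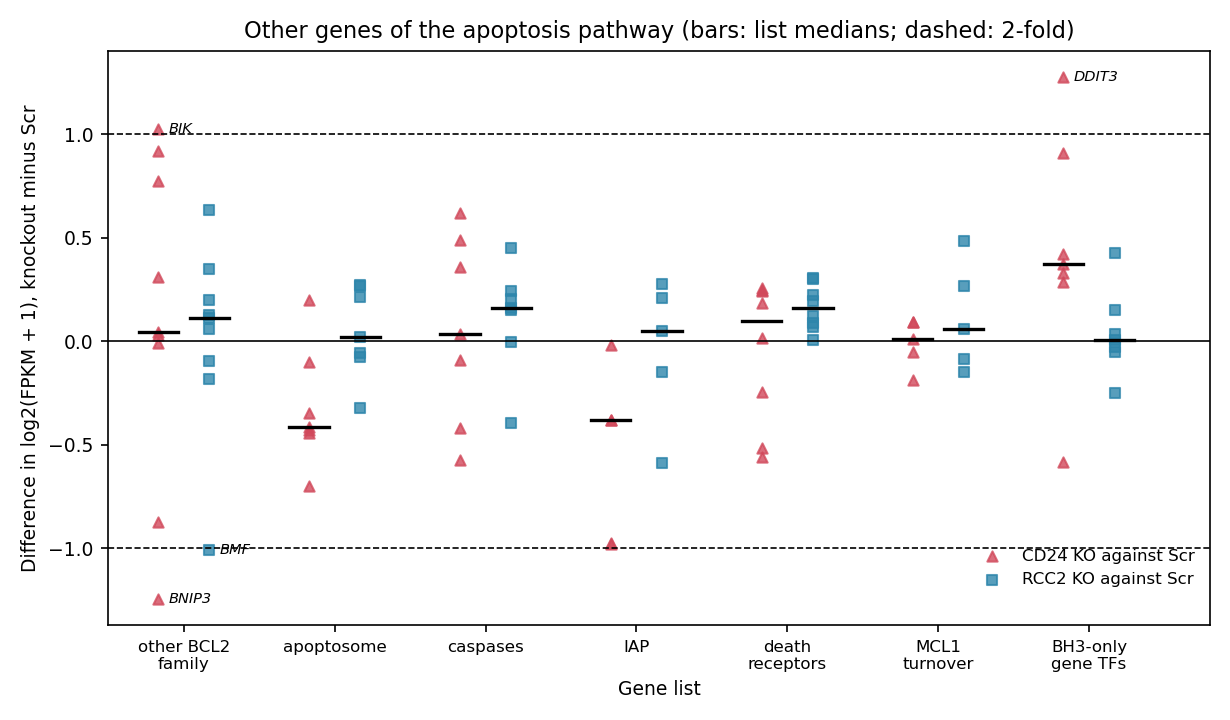
Difference in log2(FPKM + 1) from Scr for the compared genes of 7 other lists of the apoptosis pathway (TFs, transcription factors), 1 point per gene for CD24 KO and RCC2 KO, with black bars at list medians and dashed lines at 2-fold. BIK, BNIP3 and DDIT3 lie past 2-fold in CD24 KO and BMF in RCC2 KO, and the IAP and apoptosome medians lie at -0.38 and -0.41 in CD24 KO.

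The table places each member at a locus, read as hg19. BCL2 lies on chromosome 18 from 60790579 to 60986613 and PMAIP1 on the same chromosome from 57567192 to 57571538. BCL2L11 lies on chromosome 2 from 111878491 to 111926022, BAX on chromosome 19 from 49458117 to 49465055 and BAK1 on chromosome 6 from 33540323 to 33548070. These 5 members have a locus of their own. The other 5 share theirs with a further gene, so the span need not be that of the member alone. BCL2L1, on chromosome 20 from 30252255 to 30311802, shares it with ABALON, an RNA from within BCL2L1 that was at 4.07, 5.59 and 6.14 FPKM in Scr, CD24 KO and RCC2 KO. MCL1, on chromosome 1 from 150521845 to 150552214, shares it with ADAMTSL4, which was at 29.6, 52.5 and 12.3 FPKM, and with ADAMTSL4-AS1 and MIR4257. BAD, on chromosome 11 from 64037300 to 64056972, shares it with GPR137, at 20.7, 15.1 and 17.7 FPKM. BID lies on chromosome 22 from 18216906 to 18257431 with MIR3198-1, and BBC3 on chromosome 19 from 47724079 to 47736023 with MIR3190 and MIR3191. Whether the authors' counting used strand is not stated, so fragments of overlapping genes could have been divided between them.

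All 10 members are protein-coding in GENCODE 29, with between 2 coding transcripts for PMAIP1 and 17 for BCL2L11. The table merges them into 1 value per gene, so the short forms of BCL2L1 and MCL1, which promote death rather than survival, and the forms of BIM could not be told from the main ones. BAK1 was the only member with named pseudogenes, of which GENCODE lists 2.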

How the data were processed

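The submitters' processing notes list HISAT, StringTie, Cufflinks and GATK, without roles or versions. The deposited table holds FPKM values made by the authors, 1 column per condition, with the libraries of a condition already combined. How they were combined, the genome build and the annotation are not given in the sources used here. None of the 10 members overlapped its GRCh38 position in GENCODE 29, and loci were read as hg19. The library kit is a total RNA input kit in the labels and a stranded mRNA kit in the methods of the study.

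Columns were matched to conditions by the stem of their names. FPKM values were used as deposited, genes that reached 1 FPKM in any of the 3 columns entered as log2(FPKM + 1), and minimums of 2-fold and 1.5-fold replaced a test. Replicate tests were not possible with 1 value per condition. The members and gene lists were chosen with earlier results of these data known, and the lists were written from memory. All members were named, with at most 4 genes past 1.5-fold per list, except for the other BCL2 family, where all such genes were named. The calculations were tested on simulated data. Python 3.11.15, NumPy 2.4.6, pandas 2.3.3 and matplotlib 3.10.9 were used.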

Additional observations from a re-analysis of the deposited data

How the results depend on the processing

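No paired analysis was possible because the table holds 1 value per condition, and leaving out a library could not be run for the same reason. In CD24 KO against Scr, the members past the fold minimum went from 1 to 2 with a pseudocount of 0.1, quantile normalization, median centring or equal sums, to 0 with a pseudocount of 5 and to 4 at 1.5-fold. In RCC2 KO against CD24 KO they went from 1 to 0 with a pseudocount of 5 and to 3 at 1.5-fold. With quantile normalization or equal sums the count stayed at 1, but the member was PMAIP1 in place of BAX. Under quantile normalization PMAIP1 was at -1.02 and BAX at 0.95. The genes past the minimum in CD24 KO against Scr numbered 730, and 1262 with a pseudocount of 0.1, 278 with 5 and 2709 at 1.5-fold. For RCC2 KO against Scr the numbers were 154, 443, 54 and 676, and 67 when every column had to reach 1 FPKM, and for RCC2 KO against CD24 KO they were 1066, 1850, 380 and 3580. With equal sums, 66.5% of the called genes were higher in CD24 KO than in Scr, against 46.8% as deposited, and for RCC2 KO against CD24 KO the share was 29.4% rather than 48.3%. The log2 ratio of pro-survival to pro-death RNA in RCC2 KO against Scr, -0.03, was 0.0018 with class medians in place of sums and 0.049 without BAX, an alternative chosen after seeing the data. In CD24 KO against Scr the ratio stayed higher under all 5 alternatives, between 1.19 and 1.73 times that in Scr. Of 246 recomputed values of single members, 244 stayed within 1.5-fold of the main value and none of the called ones changed sign. The sign of BBC3, below 1 FPKM, changed in 2. The 246 include settings that change only the filter or the fold minimum. Those settings return the main value of a member by construction, so their match is no sign of stability. No precision can be given, since the depth is unknown and each condition has 1 value.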
